A study of Mus musculus with 36 samples.

Results

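The genes described here were chosen because their transcripts were abundant at day 2 of brown adipocyte differentiation and lower both before and after. For each protein-coding gene, counts scaled to a library total of 1000000 (CPM) were averaged over the 12 libraries of each day. Genes with a day 2 mean of at least 10 CPM were kept, which left 8519 of the 22028 protein-coding genes. They were ranked by the smaller of the ratios of day 2 to day 0 and of day 2 to day 6, after 1 CPM had been added to each mean. The first 150 were taken, 4 of them (Lcn2, Fkbp5, Saa3 and Cebpd) were left out by name, and the remaining 146 genes are called members below. The smaller ratio, called the rule value, lay between 2.22 and 40.1 with a median of 2.75. Since the day means chose the members, their levels over the days are a description and were not tested.

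The study asked whether phosphorylation of retinoid X receptor alpha at a serine targeted by insulin signalling affects gene expression during adipogenesis. RNA was sequenced from mouse brown pre-adipocytes in which Rxra had been knocked out with Cas9 and then supplied again from a retrovirus. The virus carried either the wild-type receptor (RxraWT, labelled WT) or a receptor with alanine in place of that serine (RxraSA, labelled SA). There were 3 replicates of each clone, genotype and day (0, 2 or 6), 36 libraries in all. Both genotypes therefore lack the endogenous receptor and differ only in the receptor put back, and cells of the unedited line were not analysed here. The 2 knockout clones, 48 and 66, each descend from a single cell of the same parental clonal line. Clone 48 was sequenced in library pool 1 and clone 66 in pool 2, so clone and pool cannot be told apart. Day 0 was confluence in medium with insulin and triiodothyronine. Dexamethasone, isobutylmethylxanthine and indomethacin were present only between days 0 and 2, after which the cells were returned to medium with insulin and triiodothyronine. Total counts lay between 11351078 and 24349263 per library, with a median of 18338726. Rxra itself was counted in every library, with medians of 511 CPM in WT and 501 CPM in SA libraries at day 2.

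Dexamethasone is a synthetic glucocorticoid that binds the glucocorticoid receptor, a transcription factor that then acts at response elements in DNA. Isobutylmethylxanthine inhibits phosphodiesterases and so raises cyclic AMP, and indomethacin inhibits cyclooxygenases and can activate PPARγ, the partner of RXRα in fat cells. This mixture starts the adipogenic programme through early factors of the C/EBP family, and PPARγ and C/EBPα then carry it on after the mixture has been withdrawn. Genes that answer the mixture itself and genes needed for a passing phase of growth and biosynthesis are both known at this stage.

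The cells had general adipocyte markers, while the markers particular to brown fat were near absence. The summed level of 7 adipocyte markers (Adipoq, Plin1, Fabp4, Cidec, Lipe, Cidea and Ucp1) was between 62.3 and 103 CPM per library at day 0, between 2730 and 4963 CPM at day 2 and between 5498 and 9627 CPM at day 6. Fabp4 and Adipoq, which white fat also expresses, held much of it (3363 and 2271 CPM on average at day 6), whereas Ucp1, the uncoupling protein of brown fat, had means of 0.00468, 0.0433 and 0.181 CPM at days 0, 2 and 6 and Cidea had 0.0223, 0.276 and 0.670 CPM. Markers of lymphocytes, endothelial cells and epithelial cells summed to at most 2.64 CPM in any library. The 7 macrophage markers summed to at most 23.7 CPM, with the highest values at day 0.

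Together the members held on average 0.906% of the counts of a library at day 0, 5.31% at day 2 and 1.63% at day 6. Their summed level ranged from 47984 to 59150 CPM over the 12 day 2 libraries, against 7715 to 10865 CPM at day 0 and 15251 to 17643 CPM at day 6, and the ranges of the days did not overlap. The 5 most abundant members held 27.7% of the members' counts at day 2. For 113 members every day 2 library was above all 24 others, which held for 3.97% of the 8373 ranked genes that are not members. For 107 members day 6 was the day that set the rule value, which is the same as being higher at day 6 than at day 0. The median member kept 11.4% of its rise at day 6.

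**Figure D1:**
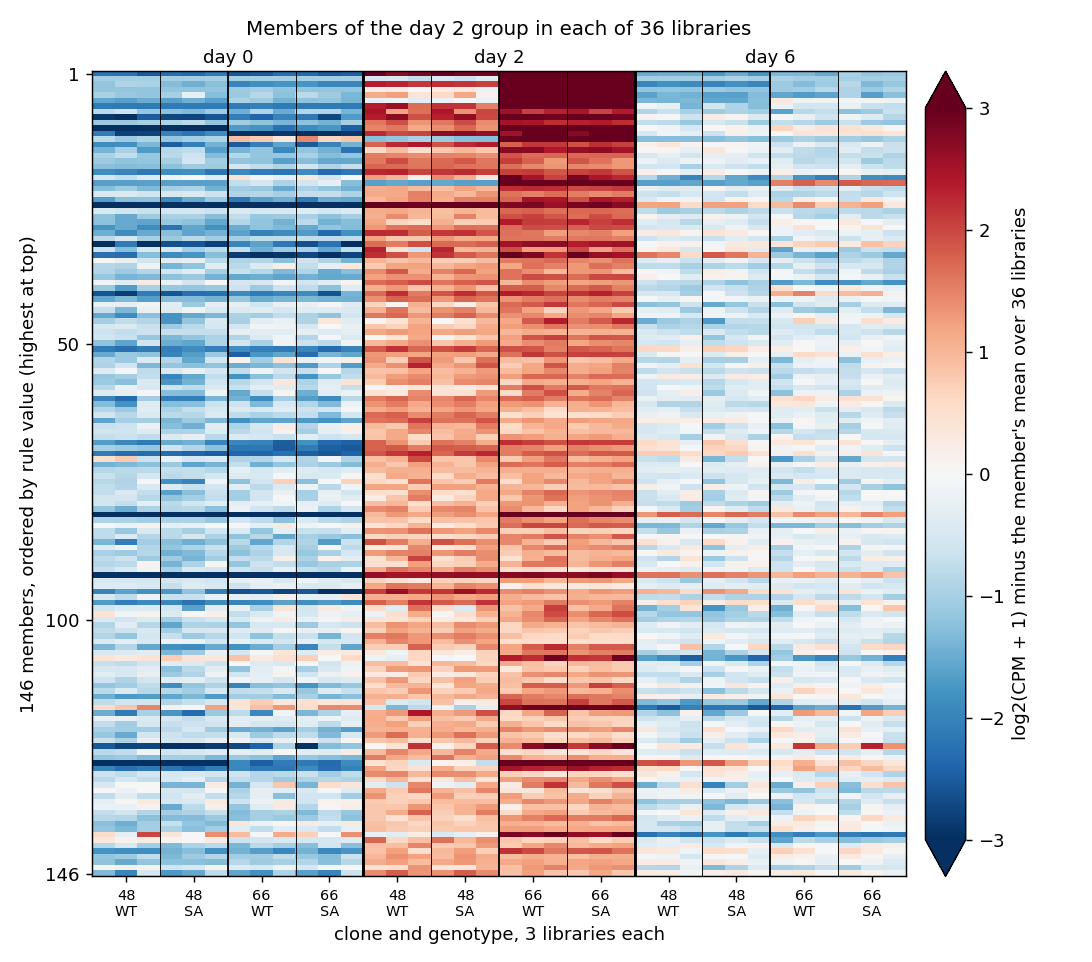
Level of the 146 members in each of the 36 libraries, as log2(CPM + 1) minus the member's mean over all libraries; rows are members in order of the rule value and columns are libraries grouped by day, clone and genotype. The 12 day 2 libraries stand out in nearly every row, and at day 2 the upper rows are darker in clone 66 than in clone 48.

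Map7d2, which encodes a microtubule-binding protein, had the highest rule value of the members. It had between 0.168 and 0.611 CPM in the 12 day 0 libraries (median 0.388), between 44.3 and 166 CPM at day 2 (median 111) and between 1.06 and 2.55 CPM at day 6 (median 1.56). Its lowest day 2 library was 17.4 times as high as its highest library of any other day. Only 7 members had a rule value above 10, namely Map7d2, Serpina3k, Fga, Serpina3m, Wfdc3, Serpina3n and Sptlc3, and each of the other 6 had a mean under 2 CPM on both other days. These 7 genes were thus nearly absent outside day 2, whereas 94 members had a rule value under 3.

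The members with the steepest peaks were mostly secreted acute-phase proteins and protease inhibitors, which the liver makes in response to glucocorticoids and cytokines. They included 3 neighbouring genes of the Serpina3 cluster, which encode serine protease inhibitors. Serpina3k had no count in any day 0 library, between 0.236 and 103 CPM at day 2, and 2 counts in all at day 6. Serpina3m had 3 counts over all day 0 libraries and a mean of 23.5 CPM at day 2. Serpina3n had means of 0.204, 33.8 and 1.10 CPM at days 0, 2 and 6. Of the 10 Serpina3 genes of the annotation, 4 reached 1 CPM on some day, and the fourth, Serpina3c, was highest at day 6 (5.99 CPM). Serpina3k lies at chr12:104338486-104346144, Serpina3m at chr12:104338486-104394257 and Serpina3n at chr12:104406729-104414329, all on the plus strand of GRCm38. The annotated exons of Serpina3k and Serpina3m share 60 bases, and reads that fit several of these similar genes were not counted, so the division of reads among them is uncertain.

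Fga, the alpha chain of fibrinogen, was the only fibrinogen chain above 1 CPM on any day. It had at most 1.12 CPM at day 0, between 15.3 and 72.2 CPM at day 2 (median 34.3) and at most 1.20 CPM at day 6. Agt, the precursor of angiotensin, was the most abundant gene of this kind, with medians of 49.5, 1376 and 380 CPM at days 0, 2 and 6. Hp (haptoglobin), Orm3 (an orosomucoid) and Wfdc3 (a protein with a whey acidic protein domain) were also in this group of 9. The gene lists used here and below were chosen with earlier results of these data known, so counts over them are a description. Of the other genes of the acute phase and complement list, 14 were tested between days. Between days 0 and 2, 8 rose and 4 fell, against 35.3% and 37.8% of all genes that are not members. Between days 2 and 6, 9 rose and 4 fell, against 32.1% and 29.5%. C3, the central complement component, rose between days 0 and 2 (log2 fold change 8.69, standard error 0.35, adjusted p = 1.22e-21) and rose again to day 6 (1.28, adjusted p = 1.86e-05). C1s1 and C1ra fell between days 0 and 2. Only 2 of the 14 both rose to day 2 and fell afterwards, which 19.3% of all genes that are not members did.

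**Figure D2:**
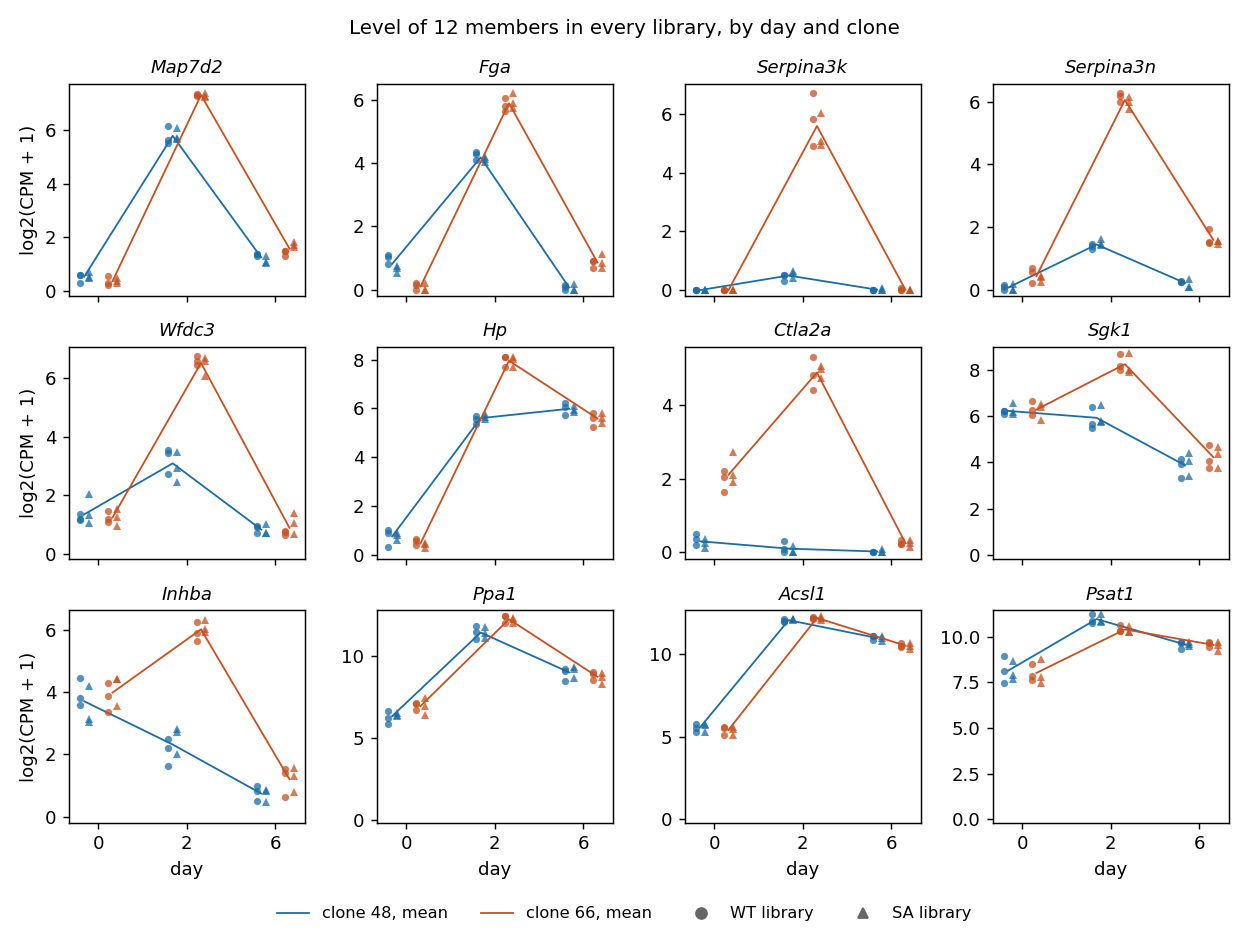
Levels of 12 members in every library as log2(CPM + 1), by day on the x axis, with clone 48 in blue, clone 66 in orange, WT libraries as circles and SA libraries as triangles; lines join the means of each clone's 6 libraries. Ppa1, Acsl1 and Psat1 were highest at day 2 in both clones, whereas Sgk1, Inhba and Ctla2a were higher at day 2 than at day 0 only in clone 66.

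The glucocorticoid response list held 4 members, all of them direct targets of the receptor in other tissues. Tsc22d3, which encodes the anti-inflammatory protein GILZ, had medians of 26.0, 195 and 45.7 CPM, with a lowest day 2 library of 149 CPM and a highest other library of 53.7 CPM. Angptl4, a secreted inhibitor of lipoprotein lipase, had medians of 81.1, 516 and 109 CPM. Pdk4, a kinase that holds back the oxidation of pyruvate, had medians of 37.6, 156 and 63.2 CPM. In all 3 the day 2 libraries lay above every library of the other days. Sgk1, a serum- and glucocorticoid-induced kinase, did not share this course in both clones. Its clone 66 libraries had between 241 and 421 CPM at day 2 against 55.5 to 99.2 CPM at day 0, while its clone 48 libraries had between 44.2 and 87.9 CPM at day 2 against 66.9 to 93.5 CPM at day 0. In clone 48 the day 2 libraries thus overlapped the day 0 libraries and were not higher on average.

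The glucocorticoid response list, too, was chosen with earlier results of these data known. Among the other genes of this list, 22 were tested between days. Of these, 17 rose and 3 fell between days 0 and 2, against 35.3% and 37.8% of all genes that are not members. Rising to day 2 and falling by day 6 held for 8, against 19.3%. When libraries were scaled by their totals and not by TMM, the median log2 change of all genes between days 0 and 2 was -0.27. The share of higher genes among those called went from 48.9% to 33.7%, and 16 list genes rose and 5 fell. Errfi1, a feedback inhibitor of the EGF receptor, rose between days 0 and 2 (2.37, standard error 0.13, adjusted p = 1.05e-17) and fell by 1.11 on the log2 scale to day 6 (adjusted p = 1.99e-09). Pik3r1, a regulatory subunit of phosphoinositide 3-kinase, followed the same course (1.85, adjusted p = 5.25e-17, then -1.01, adjusted p = 2.80e-10). Klf15, a transcription factor, rose in both intervals (3.81 and 5.62), and Anxa1, annexin A1, fell between days 0 and 2 (-3.17). The cyclic AMP response and phosphodiesterase list held no member, although Pde4b was ranked just outside the 150. Of its 23 tested genes, 12 rose and 9 fell between days 0 and 2, against 35.3% and 37.8% of all genes that are not members. Rising and then falling held for 5, against 19.3%.

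Promoter windows of RefSeq on GRCm38.p6, each from 250 bases before to 50 bases after an annotated start, were found for 112 of the 146 members by symbol. Windows were searched on both strands for motifs of the glucocorticoid receptor, of cyclic AMP response factors and of other common factors. The full 15-letter palindromic glucocorticoid response element was present in the window of Sgk1 and in none of the 6747 other ranked genes with a window. The looser 13-letter form, which includes the first, was present for Sgk1, Serpina3n and Map7d2, 2.68% of the members, against 0.237% of the other ranked genes and 0.537% of all 27025 genes with a window. In Map7d2 it lay after the start. The 9-letter C/EBP motif TTGCNNCAA was present for Fga, Grhl1 and Sgk1 (2.68% of the members, against 1.72% of the other ranked genes). The stretches before the start that held these motifs are shown because they belong to a glucocorticoid-induced kinase and to acute-phase genes with steep peaks; the motif is in capitals, the strand is that of the gene, and the build is GRCm38.
Sgk1, chr10:21993679-21993737, plus strand, motif ending 175 bases before a start: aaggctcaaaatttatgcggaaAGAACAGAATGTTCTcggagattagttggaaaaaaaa
Serpina3n, chr12:104406608-104406664, plus strand, motif ending 66 bases before the start: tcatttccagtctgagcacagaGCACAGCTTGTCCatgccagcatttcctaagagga
Fga, chr3:83025958-83026010, plus strand, motif ending 165 bases before the start: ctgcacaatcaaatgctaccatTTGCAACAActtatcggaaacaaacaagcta
The full cyclic AMP response element TGACGTCA was present for Ahcyl1, Dus2 and Trmt61a, or 2.68% of the members against 4.19% of the other ranked genes. Its first letters alone (TGACG) were present for 44.6% of the members and 39.5% of the other ranked genes. The AP-1 motif TGANTCA (6.25% against 5.20%), the STAT motif TTCNNNGAA (9.82% against 7.83%) and the TATA motif TATAAA (8.04% against 7.48%) were present at shares near those of the other ranked genes. The 8-letter C/EBP motif TTGCGCAA and the 10-letter NF-kB motif were present for 1 member each, Mpc2 and Cachd1. The 13-letter direct repeat bound by PPAR with RXR was present for no member and for 0.0296% of the other ranked genes. Each of these matches is a description of letters in a window, and binding was not measured.

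A group of 10 members encoded receptors and channels, most of which receive signals from hormones or immune cells. Il15ra, the high-affinity receptor chain for interleukin 15, had between 0.604 and 4.43 CPM at day 0, between 38.0 and 212 CPM at day 2 (median 123) and between 11.4 and 26.7 CPM at day 6. Mc5r, a melanocortin receptor that couples to cyclic AMP, had medians of 0.374, 63.6 and 9.53 CPM. Both receptors were thus near absence at day 0 and did not return to that level. Ifngr1, a chain of the interferon gamma receptor, had medians of 53.1, 326 and 69.7 CPM, and Adipor2, an adiponectin receptor, had medians of 116, 2044 and 461 CPM. Of the other genes of the hormone and adrenergic receptor list, which the rule did not choose, 23 were tested. Between days 0 and 2, 10 rose and 11 fell, against 35.3% and 37.8% of all genes that are not members. Between days 2 and 6, 14 rose, against 32.1%. Rising and then falling held for 2, against 19.3%. Insr, the insulin receptor, rose in both intervals (1.43, adjusted p = 3.53e-12, and 0.33, adjusted p = 0.0222), and Adrb3, the beta-3 receptor of mature brown fat, rose mainly between days 2 and 6 (6.87, adjusted p = 6.58e-25).

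The most abundant member belonged to a group of 8 for lipid synthesis and lipid droplets. This gene, Acsl1, which activates long-chain fatty acids, had between 33.6 and 54.7 CPM at day 0, between 3913 and 4954 CPM at day 2 and between 1262 and 2197 CPM at day 6. Gpat3, which carries out the first step of triglyceride synthesis, had medians of 9.07, 1171 and 336 CPM. Fitm2, needed to form lipid droplets, had medians of 40.9, 807 and 307 CPM, and Abhd5, the co-activator of the lipase ATGL, had 36.6, 561 and 174 CPM. These genes were high at day 2 in a narrow range and remained well above day 0 at day 6. All 8 members of this group were higher at day 6 than at day 0, and the median of the group kept 23.0% of its rise. Per length, the highest levels at day 2 among the members were those of Ppa1 (1352 RPKM, that is CPM per kilobase of exon), Mgst3 (950.3), Agt (743), Hspd1 (609) and Acsl1 (423). Acsl1 was the only member on the mature adipocyte list. Of the 26 tested genes of that list, 22 rose and 0 fell between days 0 and 2. Of all genes that are not members, 35.3% rose and 37.8% fell. Between days 2 and 6, 17 list genes rose, against 32.1%. Rising and then falling held for 5, against 19.3% (Lipe -0.29 between days 2 and 6, adjusted p = 0.0419, is one of them). Scd1, Fabp4 and Adipoq rose in both intervals.

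Ppa1, the cytosolic pyrophosphatase that removes the pyrophosphate released by biosynthetic reactions, was the second most abundant member. It had between 56.8 and 170 CPM at day 0, between 2106 and 5694 CPM at day 2 and between 310 and 654 CPM at day 6. Pole4, a small subunit of DNA polymerase epsilon, had medians of 72.7, 677 and 89.8 CPM, with every day 2 library at least 3.53 times as high as any other library. No member was on the DNA replication and mitosis list. Of its 25 tested genes, 5 rose and 13 fell between days 0 and 2, and 1 rose and 18 fell when libraries were scaled by their totals (35.3% and 37.8% of all genes that are not members rose and fell with TMM). Ppa1 lies 21345 bases from Tysnd1, another member, on chromosome 10. The other members within 100 kb of each other were Plekhf2 and Ndufaf6 on chromosome 4, the 3 Serpina3 genes, and Hspd1 and Hspe1 on chromosome 1, whose annotations overlap.

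A further set of members served protein synthesis and its supply. Psat1 and Psph, which make serine, and Shmt2 and Mthfd2, which pass its carbon to folate in mitochondria, were all members. Psat1 had medians of 237, 1687 and 791 CPM, and Mthfd2 had medians of 69.2, 715 and 228 CPM. Asns, asparagine synthetase, had between 56.1 and 174 CPM at day 0, between 398 and 578 CPM at day 2 and between 105 and 250 CPM at day 6. Cth, which makes cysteine from cystathionine, and Slc7a5, a transporter of large neutral amino acids, belonged to the same group of 10, all of which were higher at day 6 than at day 0. Asns and Psat1 are known targets of the transcription factor ATF4. Of the other genes of the integrated stress response and ER stress list, 17 were tested. Between days 0 and 2, 14 rose and 0 fell, against 35.3% and 37.8% of all genes that are not members. With library size alone 14 rose and 3 fell. Rising and then falling held for 7, against 19.3%. Atf4 itself rose between days 0 and 2 (2.07, standard error 0.12, adjusted p = 8.86e-17) and fell by 1.01 on the log2 scale to day 6 (adjusted p = 5.32e-09). Trib3 rose in both intervals (3.58 and 0.64).

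The group for charging and modifying transfer RNA had 7 members, with a median rule value of 2.55, and the median of the group kept 6.71% of its rise. Rars, Tars and Farsb, which charge transfer RNAs with arginine, threonine and phenylalanine, were members, with rule values between 2.32 and 2.67. Rars had medians of 191, 499 and 145.2 CPM. Of the 20 cytosolic aminoacyl-tRNA synthetases in the annotation, 18 had their highest mean at day 2, against 26.1% of the 11972 protein-coding genes with at least 1 CPM on some day. The exceptions were Qars and Sars. All 8 listed proteins of the particles that modify ribosomal RNA (Nop56, Nop58, Fbl, Snu13, Nop10, Nhp2, Gar1 and Dkc1) also had their highest mean at day 2, and Nop56 was the only member among them. These families were compiled after the members' values had been seen and were not tested.

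Several members were lower at day 6 than before differentiation. Of the 8 ribosome assembly members, 6 were lower at day 6 than at day 0, and the group median kept -7.44% of the rise. Tsr1, which matures the small subunit, had medians of 46.4, 165 and 39.98 CPM, and Nop56 had 94.2, 246 and 66.6 CPM. Odc1, the rate-limiting enzyme of polyamine synthesis, had between 43.4 and 77.0 CPM at day 0, between 132 and 255 CPM at day 2 and between 17.1 and 40.9 CPM at day 6, so that its 3 days did not overlap and day 6 was the lowest. Srm, spermidine synthase, had medians of 35.8, 129 and 42.5 CPM.

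**Figure D3:**
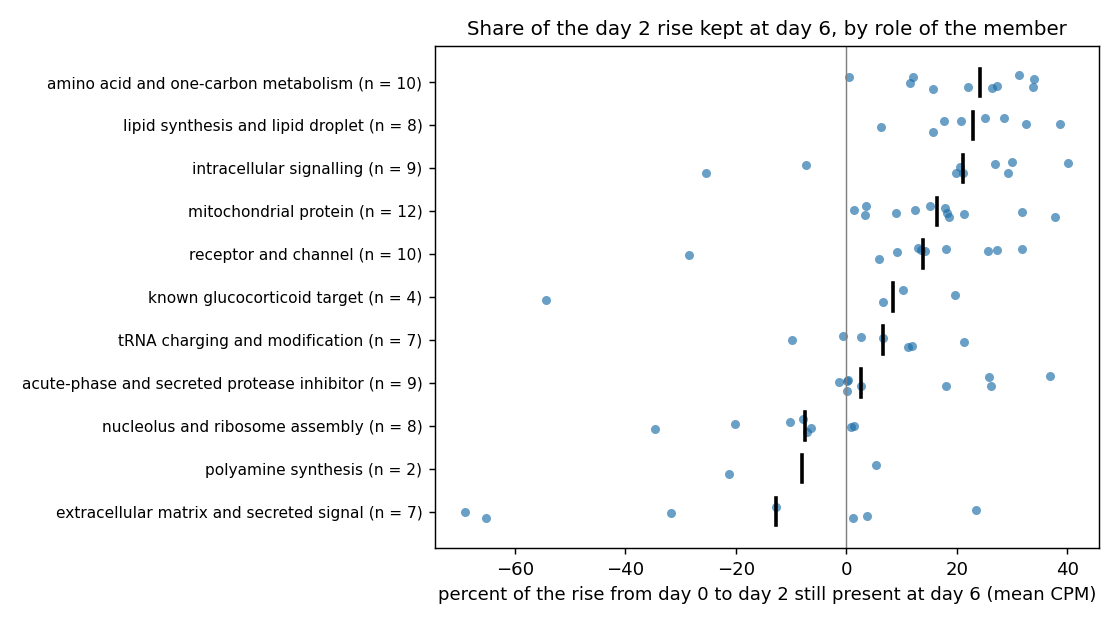
Percent of the rise in mean CPM from day 0 to day 2 that was still present at day 6, for members grouped by role; each point is a member, black bars are group medians, and values below 0 are members lower at day 6 than at day 0. Group medians run from -12.8% for matrix and secreted signals to 24.2% for amino acid and one-carbon metabolism.

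The mitochondrial group had 12 members, all higher at day 6 than at day 0. It included the chaperonin Hspd1 (medians of 249, 1577 and 528 CPM) and its partner Hspe1 (93.2, 366 and 138 CPM), whose genes share a promoter region. Acadm, which begins the oxidation of medium-chain fatty acids, had medians of 214, 1377 and 590 CPM. Matrix and secreted signals went the other way, and 4 of the 7 were lower at day 6 than at day 0. Vcan, the proteoglycan versican, had between 199 and 356 CPM at day 0, between 1283 and 3266 CPM at day 2 and between 182 and 354 CPM at day 6, and so returned to its starting range. Inhba, a subunit of activin, was among them, at -65.3% of the rise. Kitl and Col6a3 overlapped between days. In the signalling group of 9, Pim3, a survival kinase, had medians of 51.5, 476 and 132 CPM, and Limk2, a kinase of the actin cytoskeleton, had 82.5, 317 and 66.8 CPM. Irs2, an insulin receptor substrate, and Socs2, an inhibitor of growth hormone signalling, were also members, with medians at day 2 of 142 and 89.6 CPM.

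The rule cut a continuous ranking. Just inside it were Mpc2, Jagn1, Fam49b, Tnfrsf1b and Psat1, with rule values from 2.23 down to 2.22, and just outside it were St3gal1, Pde4b, Gnl3 and Scara5, with values from 2.22 down to 2.19. Taking each clone alone found 99 of the members in clone 48 and 113 in clone 66, and 66 members in both. Taking WT or SA libraries alone found 139 members each.

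SA and WT libraries did not differ detectably in any member. At day 2 no member and none of the 16723 genes tested was called at an adjusted p of 0.05 in edgeR's quasi-likelihood test (0% of genes called). At an unadjusted p under 0.05 there were 0 members and 162 genes, and DESeq2 also called none. Both counts are below the share of 0.05 that chance alone would give, so the test was conservative. Its model had a clone term but no clone-by-day term and no pairing of WT with SA libraries. Its standard errors thus include such differences, and small genotype differences could be missed. With a replicate block 206 genes had an unadjusted p under 0.05 at day 2, and 0 were called. The log2 fold changes of SA against WT at day 2 lay between -0.37 (Serpina3k) and 0.26 (Mc5r), with a median of -0.03 over members and -0.01 over all genes. The median size of the difference was 0.05 for members and 0.07 for all genes, with a median standard error of 0.19 for both. Days 0 and 6 gave the same counts of 0 called, with 1 and 0 members at an unadjusted p under 0.05 against 139 and 125 genes. The increase from day 0 to day 2 and the decrease from day 2 to day 6 were called different between genotypes for 0 members and 0 genes (0% of genes called in both), with 0 members and 144 and 153 genes at an unadjusted p under 0.05. The smaller ratio of day 2 to the other days had nearly the same median in both genotypes, 2.62 in clone 48 for WT and SA, and 2.95 and 2.94 in clone 66.

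**Figure D4:**
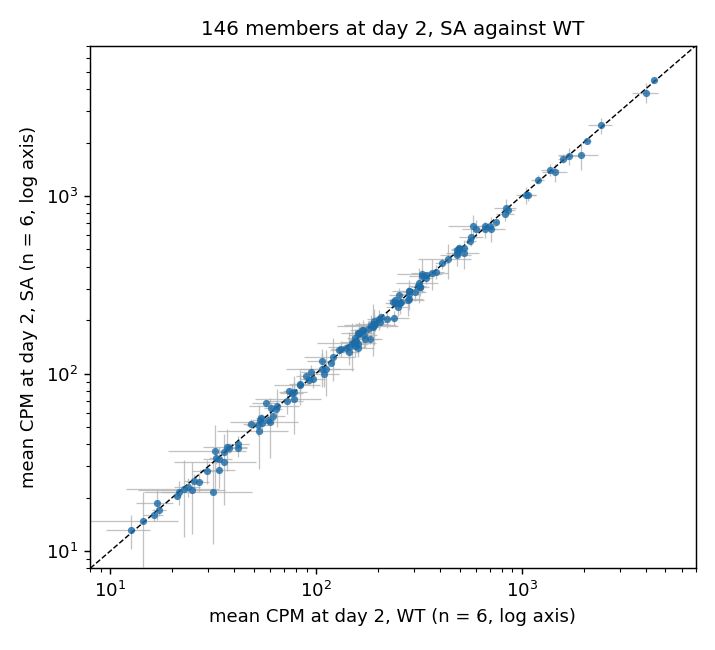
Mean CPM of the 146 members at day 2 in SA against WT libraries (6 each, both axes logarithmic), with standard errors over libraries as bars and the line of equality dashed. The 6 libraries come from both clones, so the bars include the difference between clones and are not the error of the genotype comparison. The members lie along the line over their whole range of levels.

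The clones did differ. Counts of WT and SA libraries with the same clone, day and replicate number were added, which gave 3 sums for each clone and day, and the sums were compared with the same edgeR test. The series' design text calls the 3 replicates technical, so the p-values measure only the spread between these samples. At day 2, 66 members were called different between clones, 45.2% of the members against 15.6% of the 19265 genes tested. Of them 56 were higher in clone 66 (8.09% of all genes) and 10 were lower (7.47% of all genes). The median log2 fold change was 0.38 over members and -0.01 over all genes. Every clone 66 library was above every clone 48 library at day 2 for 55 members, against 9.75% of the ranked genes, and the reverse held for 18 members, against 14.2%. A gene that is high in a single clone can pass the rule through the mean, so the rule can take up genes that differ between clones, and these counts are a description of how the members were made up. In particular 8 members had under 10 CPM at day 2 in clone 48 and passed through clone 66, among them Serpina3k, Serpina3m, Wfdc3, Serpina3n, Ctla2a, Rdh12 and Inhba, and no member passed through clone 48 in this way. The 47 members that the rule found in clone 66 alone and not in clone 48 supplied 33 of the 56 higher calls and 0 lower ones (median log2 fold change 1.03), and the 33 found in clone 48 and not in clone 66 had 1 higher and 7 lower (-0.22). Among the 66 members found in both clones taken alone, 22 were higher and 3 lower in clone 66, with a median of 0.32. Members not found in both are given below with values and no p-value, since their membership rests on such a difference.

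All 9 members of the acute-phase group were called higher in clone 66 at day 2, against 8.09% of all genes. Of these 9, 7 were not found in clone 48 taken alone. Serpina3n had between 1.48 and 2.04 CPM in the 6 clone 48 libraries and between 53.6 and 75.8 CPM in the 6 clone 66 libraries (log2 fold change 5.31). Serpina3k had at most 0.581 CPM in clone 48 and at least 29.1 CPM in clone 66 (7.02), and Serpina3m at most 1.79 and at least 33.7 CPM (4.99). The cluster was thus low in clone 48 as a whole, and within that clone its highest mean was still at day 2. Hp and Fga, by contrast, were present in both clones. Hp had between 39.8 and 54.1 CPM in clone 48 and between 205 and 278 CPM in clone 66 (2.45), and Fga between 15.3 and 19.3 and between 49.2 and 72.2 CPM (1.84).

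Ctla2a, a cysteine protease inhibitor, had at most 0.236 CPM in clone 48 and between 20.4 and 38.9 CPM in clone 66 at day 2 (8.70, a fitted value that rests on few counts in clone 48). Il15ra and Map7d2 were found in both clones taken alone. Il15ra had between 38.0 and 57.3 CPM and between 190 and 212 CPM (2.12, standard error 0.17, adjusted p = 1.45e-07), and Map7d2 between 44.3 and 70.0 CPM and between 151 and 166 CPM (1.59, standard error 0.14, adjusted p = 7.71e-07). In both genes the 6 libraries of a clone lay close together and the clones did not overlap. Sgk1 (2.39) and Pdk4 (1.03) were higher in clone 66 as well, whereas Tsc22d3 (0.02, adjusted p = 0.957) and Angptl4 (0.35, adjusted p = 0.0699) were not called. Of the 25 members for amino acid metabolism, transfer RNA and ribosome assembly, 2 were higher and 4 were lower in clone 66 at day 2. Of the 12 mitochondrial members 4 were higher and 2 lower. Among all genes tested, 8.09% were higher and 7.47% lower. Glud1, glutamate dehydrogenase, of the amino acid group, was lower in clone 66, with 732 to 1082 CPM in clone 48 and 385 to 494 CPM in clone 66 (-1.02).

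**Figure D5:**
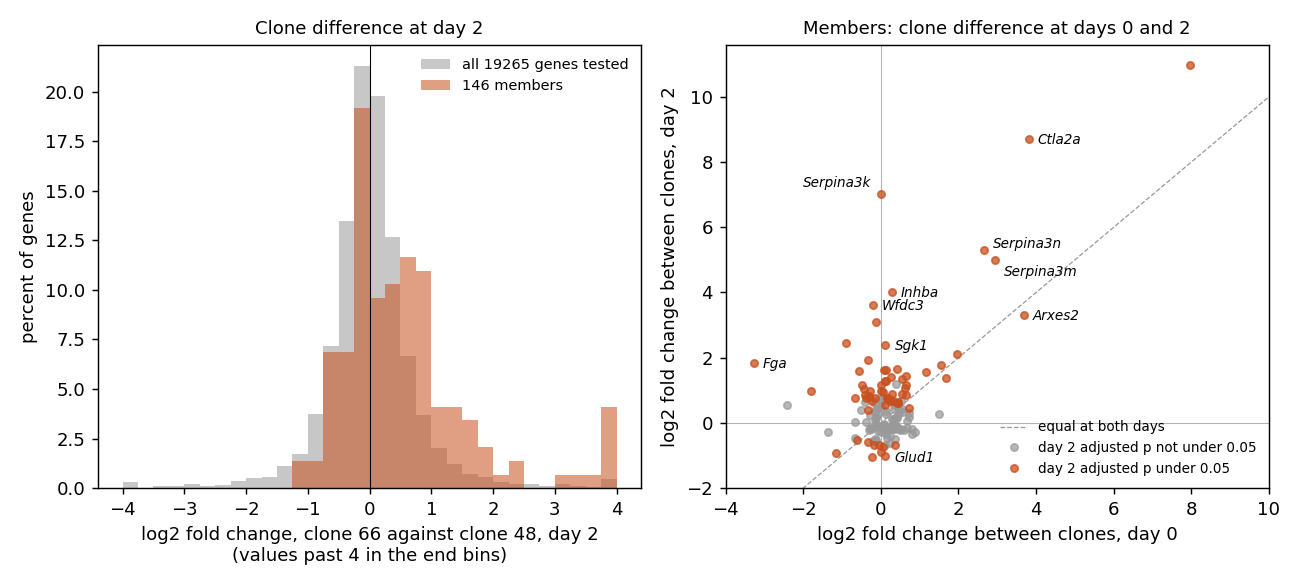
Left, distribution of the log2 fold change of clone 66 against clone 48 at day 2 for the 146 members (orange) and all 19265 genes tested (grey), in percent of genes. Right, the same value for each member at day 2 against day 0, with members called at day 2 in orange; fitted values above 6 rest on few counts in clone 48 or at day 0 and depend on the prior count. Most called members lie above the dashed line of equal difference on both days.

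Fewer members were called different between clones on the other days. At day 0, 21 were called (13 higher in clone 66 and 8 lower, against 10.7% of all genes, 5.90% higher and 4.84% lower), and at day 6, 30 were called (22 higher and 8 lower, against 12.2% of all genes, 6.60% higher and 5.64% lower). The 6 libraries of clone 66 lay above all 6 of clone 48 for 15 members at day 0 and 16 at day 6 (7.57% and 6.88% of the ranked genes) and below them for 8 and 14 members (6.88% and 8.29%). With library size alone the share of genes higher in clone 66 among those called at day 6 was 42.9% in place of 53.9%, and 17 members were higher and 12 lower. The change between days was also compared. The log2 change from day 0 to day 2 was higher in clone 66 for 24 members and lower for 2 (Glud1 and Taf4b), against 1.36% of all genes called (0.924% higher and 0.436% lower). The log2 change from day 2 to day 6 was lower in clone 66 for 18 members and higher for 2 (Fga and Glud1), against 1.25% of all genes called (0.732% lower and 0.514% higher). These counts depended on single replicates: without replicate 2 of clone 66, 14 members were called at day 6, 16 in the earlier interval and 9 in the later, and without replicate 2 of clone 48 the counts were 16, 15 and 11. The interval counts also follow in part from the rule. Members found in clone 66 alone supplied 14 of the 24 higher calls in the earlier interval and 12 of the 18 lower calls in the later. Both lower calls of the earlier interval were members found in clone 48 alone. Among the 66 members found in both clones, 10 were higher and 0 lower in the earlier interval, and 1 was higher and 6 lower in the later.

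Some members had different courses in the clones, and the rule took them up through clone 66. Inhba had between 7.16 and 21.03 CPM at day 0 and between 2.09 and 6.01 CPM at day 2 in clone 48, and between 9.26 and 20.7 CPM at day 0 and between 49.1 and 79.9 CPM at day 2 in clone 66. The log2 change from day 0 to day 2 differed between the clones by 3.74 for Inhba and by 2.28 for Sgk1. In clone 48 every day 2 library of Inhba was below every day 0 library, while those of Sgk1 overlapped. For 6 members the mean at day 2 was not the highest of the 3 days in clone 48, among them Arxes2, Inhba, Hp, Sgk1 and Ctla2a, and for 0 members in clone 66. Hp and Arxes2, an X-linked gene of adipocytes, were highest at day 6 in clone 48. Hp had between 51.5 and 73.1 CPM there at day 6, against 36.9 to 55.8 CPM in clone 66, and its change from day 2 to day 6 differed by -2.77 between the clones. For Arxes2 the difference was -4.18. For Orm3 the earlier change differed by 2.77 and the later by -3.78. The label of a day 2 peak thus held for these 6 genes in clone 66 and not in clone 48.

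Reads were counted without regard to strand, and those that fell on more than 1 gene were dropped. For 52 members some exon bases overlapped another annotated gene, most for Gpat3 (37.4% of its exon bases), Tsr1 (32.3%) and Orc2 (29.8%), and the counts of these genes are uncertain to that extent. In bulk RNA a larger share of responding cells and more RNA per cell cannot be told apart.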

How the data were processed

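RNA of 36 brown pre-adipocyte samples was sequenced with a stranded total RNA kit. Per the labels and file headers, the authors aligned reads to mm10 with STAR 2.7.0d and deposited raw counts per gene made with featureCounts 1.6.2, without strand and without reads that fit several places or genes. edgeR 3.24.3 in the submitters' processing notes was not used here. Libraries were grouped by the labels. The members and gene lists were chosen with earlier results of these data known, and role groups, added families and genes outside the naming rule were chosen after values had been seen.

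Counts were analysed with edgeR 4.0.16 in R 4.3.3, using TMM scaling, filterByExpr, quasi-likelihood tests and Benjamini-Hochberg adjustment at 0.05 over all genes tested. SA was compared with WT in 36 libraries with clone as a covariate, and clones were compared in 18 sums. Counting intervals cover counting error only. Alternatives included DESeq2 1.42.0, library size alone, other filters, a replicate block and leaving out each replicate. WT and SA libraries of the same clone, day and number deviated together, with correlations from 0.176 to 0.931 and all 18 above 0.1, so the numbers pair them. The tests were checked on simulated data.

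Genes were named by rule: the 40 members with the highest rule value, members on a list, up to 10 members with the smallest adjusted p in each contrast, the 5 genes on each side of the threshold, the 5 members highest per length at day 2, members within 100 kb of each other and those with a printed promoter, and abundant or singled-out genes of each list. Some genes that the rule names are not reported here.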

Additional observations from a re-analysis of the deposited data

Results flagged for a closer look

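In 1 of 80 groups of 6 libraries tested, a single library stood apart from the rest. Angptl4 had 626 CPM in WT replicate 1 of clone 66 at day 2, and chance alone gives this in about 1 in 20 groups.

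The log2 change from day 0 to day 2 differed between clones, as clone 66 minus clone 48, by 5.11 for Fga, 4.89 for Ctla2a, 3.83 for Wfdc3, 3.74 for Inhba and 3.33 for Hp. It differed by 2.97 for Mc5r, 2.77 for Orm3, 2.27 for Echdc2, 2.15 for Map7d2 and 1.45 for Pdk4. The values of Fga and Ctla2a rest on few counts in 1 clone on 1 of the days. The log2 change from day 2 to day 6 differed by -4.18 for Arxes2, -3.78 for Orm3, -3.37 for Wfdc3 and -2.77 for Hp. It differed by -2.50 for Echdc2, -1.76 for Rdh12, -1.56 for Il15ra, -1.45 for Kyat1 and -1.33 for Pdk4. All of these had an adjusted p under 0.05 in edgeR's test of the difference between clones. Of these genes Fga, Mc5r, Map7d2, Il15ra and Kyat1 were found by the rule in each clone taken alone. The others were found in clone 66 only, so their membership rests on that clone and the test is no evidence there. Clone and library pool cannot be told apart in them.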

How the results depend on the processing

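The genotype comparisons called 0 genes and 0 members under every alternative, the replicate block included, which changed no call there. Numbers shared by the clones mark no common origin in the labels. Same-numbered sums of the 2 clones still mostly deviated together (correlations 0.0901 to 0.912, median 0.779, 8 of 9 above 0.1). The main clone test left this out, and the replicate block took it in. With 36 separate libraries in place of sums, clone calls at days 0, 2 and 6 and in the earlier and later intervals were 3997, 5027, 4394, 1095 and 1022 genes. Members called were 45 at day 0, 52 at day 6, 50 and 46 in the intervals, and those higher in clone 66 were 31 at day 0 and 37 and 14 in the intervals. With the replicate block the genes were 3627, 4727, 4123, 750 and 664, the members 40, 46, 46 and 38, and the higher members 27, 39 and 5. DESeq2 called 536 and 490 genes in the intervals, and 32 members in the later one, 4 of them higher. In the later interval 1 member was higher with RLE size factors and 5 without a filter, and SA libraries alone called 151 genes. Leaving out a replicate gave 1244 to 1834, 1734 to 2607, 1303 to 2427, 112 to 191 and 76 to 215 genes, 14 to 23, 46 to 64, 14 to 33, 14 to 23 and 9 to 14 members, and 8 to 17, 39 to 54, 11 to 27, 14 to 22 and 0 to 1 members higher. The cause was not tested, though fewer samples enter when a replicate is left out. Of 800 alternative values of named members, 795 kept their direction and call, 5 kept the direction without the call (among them Rdh12 and Ctla2a), and 0 reversed. The rule found 132 to 138 members without a replicate, 131 with TMM scaling and 129 with medians. Without the shallowest library, an alternative chosen after seeing the data, it found 143. Depth limits genes with few counts in clone 48, such as Serpina3k.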
